A study of Anser cygnoides with 12 samples.

Results

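Mitochondrial solute carriers form a protein family. Most lie in the inner mitochondrial membrane and move nucleotides, phosphate, amino acids, organic acids, fatty acyl groups and cofactors between the cytosol and the mitochondrial matrix. SLC25A17, of peroxisomes, and SLC25A46, of the outer membrane, belong to the same family. Most genes of the family carry symbols that begin with SLC25A. Every gene of the deposited table with such a symbol was taken, which gave 38 of 18007 genes. The choice used the symbol alone and no measured value. The inner membrane lets few charged molecules pass, so each pathway that runs through both compartments needs a carrier. Enterocytes, the absorbing cells of the small intestine, use much glutamine and glutamate as fuel, and the carriers link that use to the respiratory chain. The roles given below are known mainly from human, mouse and yeast proteins.

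The carriers were measured by poly(A) RNA-seq in the jejunum of 12 female Sichuan white geese (Anser cygnoides), which were 250 days old at the start and were fed for 12 weeks. The Con group (n = 4) received a corn and soybean meal diet without wheat germ, the LWG group (n = 4) a diet with 21.8% wheat germ and the HWG group (n = 4) a diet with 43.6% wheat germ. Wheat germ is a feed rich in the polyamine spermidine. In the LWG and HWG diets it took the place of part of the soybean meal, the brans and the rapeseed meal. It also replaced part of the soybean oil in the LWG diet and all of it in the HWG diet, so the diets differed in more than spermidine. Each library came from a piece of jejunum with all of its cell types, so fewer cells of a type and less RNA per cell cannot be told apart. The deposited counts summed to between 40159187 and 45686956 per library, and edgeR's common coefficient of biological variation among the geese was 0.384. Levels are given in CPM, the count scaled to a common library size by the trimmed mean of M-values, with the SD over the 4 geese of a group. Where genes are compared with each other, levels are given in FPKM, which the authors scaled by transcript length.

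Before the carriers were compared, the tissue was checked against marker genes. Of 10 markers of enterocytes, 7 were found in the table, all of them were expressed, and together they stood at 3535 to 18920 CPM in the 12 geese. Of 12 smooth muscle markers, 8 were found, and together they stood at 5439 to 34860 CPM. GATA4, a transcription factor of the proximal small intestine, was at 27.5 to 86.7 CPM in 7 geese and at 0 to 2.66 CPM in Con 2, Con 4, LWG 1, LWG 2 and HWG 4. HOXA10, a homeobox gene of the distal gut, was at 0 to 0.166 CPM in those 7 geese and at 5.75 to 35.6 CPM in the other 5. A defining marker of the proximal small intestine was thus absent or nearly absent in 5 of 12 pieces labelled as jejunum, and these geese belonged to all 3 diets. For this reason each carrier was also set against 2 scores within the diet groups. The smooth muscle score was the mean log2 CPM of the 8 muscle markers, and the region score was the log2 CPM of GATA4 minus that of HOXA10.

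The levels of the carriers covered a wide range. By mean FPKM over the 12 geese, 3 carriers stood at 100 or more, 14 between 10 and 100, 17 between 1 and 10 and 4 under 1. The median over the 38 carriers was 9.19 FPKM, beside 4.26 FPKM over all genes of the table and 7.14 FPKM over the 14863 genes with enough counts to be tested. SLC25A6, an ADP/ATP carrier that exports the ATP made by respiration, had the highest level, with a mean of 1480 FPKM. It ranked 11 among all genes and was 10.5 times the next carrier. In each goose SLC25A6 made up 56.7 to 72.5% of the summed FPKM of the carriers, and this sum ran from 1774 to 2842 FPKM. After it came SLC25A5 with 141 FPKM, a second ADP/ATP carrier, and SLC25A3 with 105 FPKM, which imports the phosphate for ATP synthesis. SLC25A20, which brings acylcarnitines in for fatty acid oxidation, had a mean of 90.2 FPKM, and SLC25A1, which exports citrate for fatty acid synthesis, had a mean of 39.2 FPKM. At the other end, SLC25A47 had a mean of 0.49 FPKM, SLC25A21 0.16 FPKM, SLC25A40 0.05 FPKM and SLC25A31 0.02 FPKM. SLC25A31, an ADP/ATP carrier of male germ cells in mammals, and SLC25A40, a carrier of glutathione, were too low to be tested, which left 36 carriers in each comparison. Over these 36, the median coefficient of variation between geese was 26.9%, beside 28.8% over all tested genes. It was under 20% for 9 carriers and over 50% for 6.

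**Figure D1:**
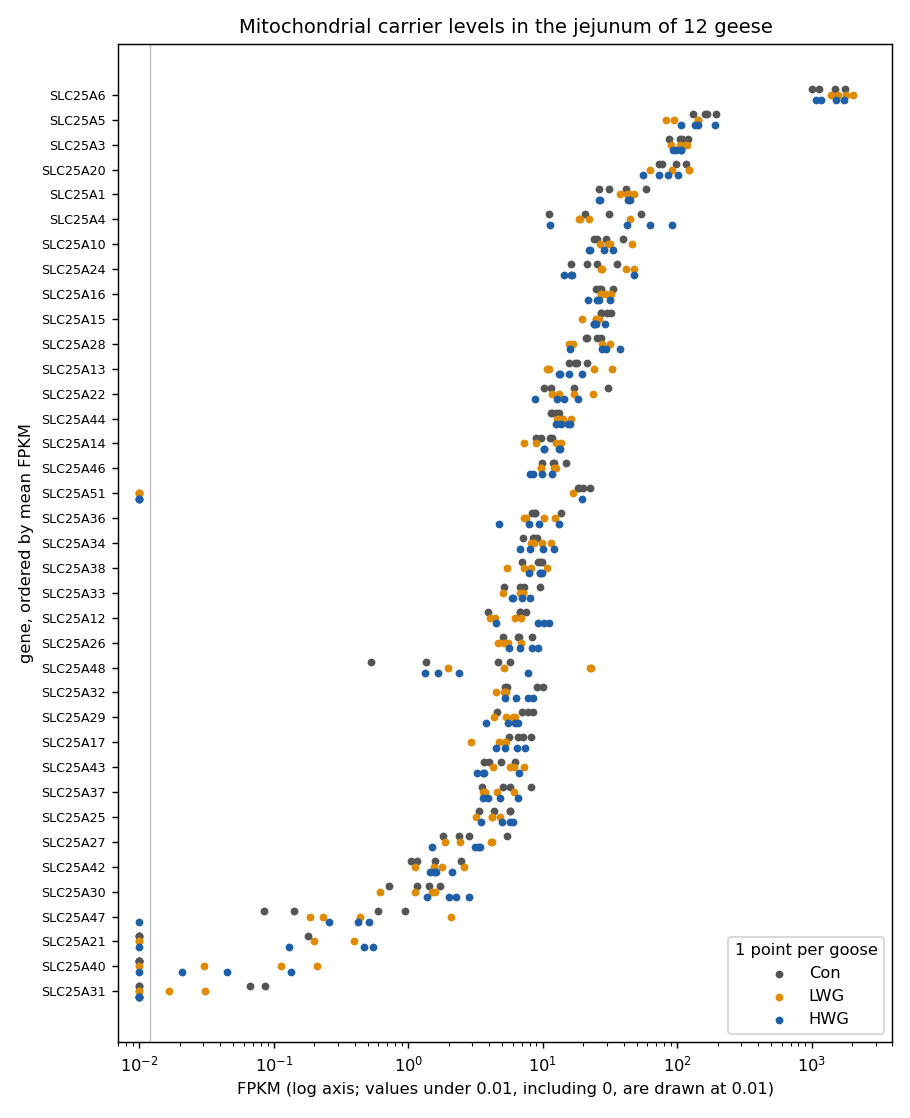
FPKM of 37 of the 38 carriers on a log axis, ordered by mean, with 1 point per goose and 1 colour per diet group. SLC25A6 lies above all other carriers in every goose, and SLC25A51 falls into 6 geese near the middle of the axis and 6 at 0.

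SLC25A51, which brings NAD+ into mitochondria in human cells, had counts in some geese and none in others. Its deposited counts were 1418, 1662, 1630 and 1952 in Con 1 to 4, then 1396, 0, 0 and 0 in LWG 1 to 4 and 1674, 0, 0 and 0 in HWG 1 to 4. In every goose it was therefore either between 1396 and 1952 or at 0, with 6 geese on each side and no value between. The 4 Con geese, LWG 1 and HWG 1 had counts, and the other 3 geese of each wheat germ group had none. Its span in the table overlaps ZBTB5 on the other strand and POLR1E and a pair of uncharacterized genes on the same strand. ZBTB5 had 1282 to 1741 counts and POLR1E had 2051 to 3306 counts over the same 12 libraries, and neither was at 0 in any of them. Among all 18007 genes, 5 were at 0 in some libraries and at 200 or more counts in all others, a limit set after the counts of SLC25A51 were seen, and SLC25A51 was the 1 of these 5 that has a gene symbol. The library preparation marked the strand, but the sources used here do not say whether counting used it, and how a read was assigned where genes overlap was not tested. No fold change is given for SLC25A51. Its adjusted p was 0.899 for LWG against Con and 0.939 for HWG against Con in edgeR.

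**Figure D2:**
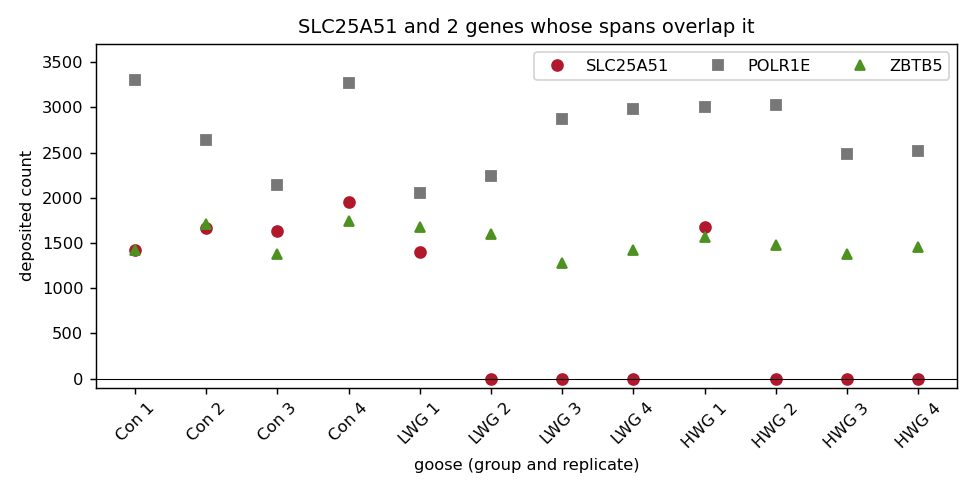
Deposited counts of SLC25A51, POLR1E and ZBTB5 in each of the 12 geese. SLC25A51 is at 1396 to 1952 in 6 geese and at 0 in LWG 2, 3 and 4 and HWG 2, 3 and 4, while both overlapping genes have at least 1282 counts in every goose.

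The first comparison asks whether the diets with wheat germ changed the expression of the carriers. By edgeR's quasi-likelihood test, with Benjamini-Hochberg adjustment over all 14863 tested genes, 0 of 36 carriers passed an adjusted p under 0.05 in LWG against Con, in HWG against Con or in HWG against LWG, and the share of all tested genes that passed was 0% in both directions of each. The smallest adjusted p of a carrier was 0.665 in LWG against Con, 0.939 in HWG against Con and 0.415 in HWG against LWG. DESeq2 on the same counts also called 0 carriers, while it called 37, 5 and 110 genes of the whole table in the 3 comparisons. The median log2 fold change of the 36 carriers was 0.04 for LWG against Con, -0.13 for HWG against Con and -0.13 for HWG against LWG, beside 0.01, -0.01 and 0.01 over all tested genes. Both comparisons with Con use the same 4 Con geese.

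At an unadjusted p under 0.05, the counts of carriers were near those over all genes. In LWG against Con, SLC25A48 was the 1 carrier with a higher level and SLC25A32 the 1 with a lower level, and 2.83% and 3.8% of all tested genes were this far higher and lower. For HWG against Con, SLC25A30 was the 1 carrier with a higher level (2.13% of all genes) and 0 carriers had a lower level (2.04%). In HWG against LWG, SLC25A12 and SLC25A30 made 2 carriers with a higher level (5.15%) and SLC25A48 was the 1 with a lower level (5.41%). The 4 geese of LWG and the 4 of Con did not overlap for 2 of 36 carriers, SLC25A17 and SLC25A51, beside 2.87% of all tested genes. In HWG against Con and in HWG against LWG the groups overlapped for every carrier tested, and 2.31% and 4.39% of all tested genes did not overlap.

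**Figure D3:**
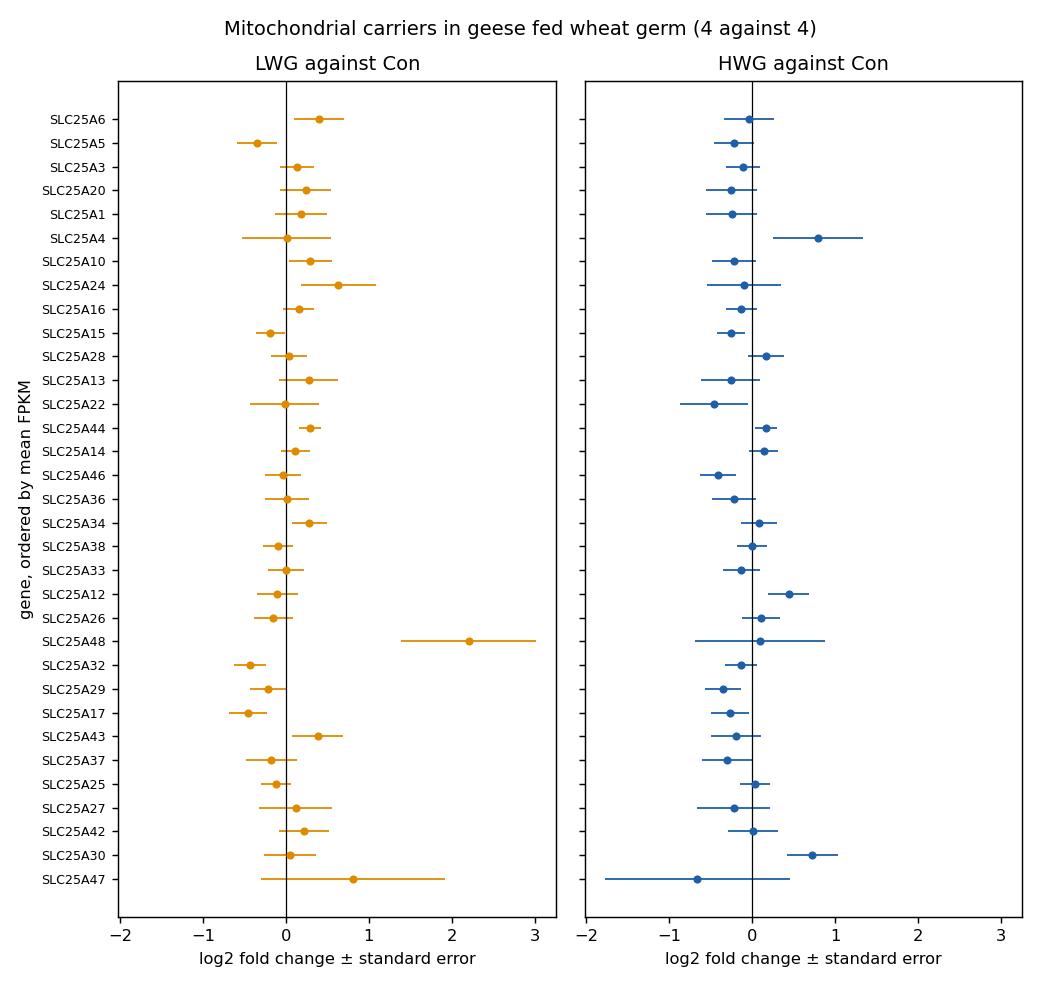
Log2 fold change with its standard error for LWG against Con and HWG against Con, for the tested carriers without SLC25A51, SLC25A21 and 1 that is not reported here, ordered by mean FPKM. SLC25A48 at 2.20 in LWG against Con lies farthest from 0, and none of the values passed the adjusted test.

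SLC25A48, which carries choline into mitochondria in mammals, had the widest spread of the tested carriers other than those with geese at 0. SLC25A48 stood at 3.59, 28.7, 10.3 and 34.9 CPM in Con 1 to 4, at 144, 158, 15.3 and 39.7 CPM in LWG 1 to 4 and at 15.7, 8.24, 11.8 and 47.1 CPM in HWG 1 to 4. The high values came from LWG 1 and LWG 2, while LWG 3 and LWG 4 lay within or near the range of the other groups. LWG 1 and LWG 2 were also the 2 LWG geese with HOXA10 above GATA4. The log2 fold change was 2.20 (SE 0.818, unadjusted p = 0.0184) for LWG against Con and -2.11 (SE 0.815, unadjusted p = 0.0225) for HWG against LWG. Without each goose in turn, the value for LWG against Con ran from 1.77 (without LWG 2) to 2.65 (without Con 4). With the region score as a covariate, LWG against Con was 1.96 (unadjusted p = 0.000237, adjusted p = 0.285 in edgeR). In the same fit HWG against LWG was -1.54 (unadjusted p = 0.0018, adjusted p = 0.107). Over all alternatives and left-out geese, no adjusted p of SLC25A48 in a diet comparison was under 0.05.

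The ADP/ATP and phosphate carriers serve ATP synthesis directly. SLC25A6 stood at 2655, 1841, 3525 and 1609 CPM in Con 1 to 4, at 2325, 3230, 3163 and 4027 CPM in LWG 1 to 4 and at 2606, 1739, 3215 and 1857 CPM in HWG 1 to 4. The highest goose was LWG 4 and the lowest was Con 4, and the groups overlapped. SLC25A5 stood at 196, 184, 180.3 and 215 CPM in Con 1 to 4, at 94.9, 118, 199 and 197 CPM in LWG 1 to 4 and at 224, 159.9, 136 and 147 CPM in HWG 1 to 4. LWG 1 and LWG 2 were the lowest geese, and the other 2 LWG geese lay among the Con geese. The log2 fold change was -0.35 (SE 0.242, unadjusted p = 0.171) for LWG against Con, and ran from -0.51 without LWG 3 to -0.18 without LWG 1. SLC25A4 stood at 61.9, 37.2, 24.9 and 96.2 CPM in Con 1 to 4, at 34.7, 44.7, 42.8 and 99.7 CPM in LWG 1 to 4 and at 120.1, 164, 23.4 and 74.5 CPM in HWG 1 to 4. SLC25A4 is the ADP/ATP carrier of heart and skeletal muscle in mammals, its geese ran from 23.4 to 164.2 CPM within the HWG group, and the difference from Con of 0.80 (SE 0.541, unadjusted p = 0.165) was within that spread.

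As a share of the summed FPKM of the 3 ADP/ATP carriers, SLC25A6 took 80.2 to 93.9% in the 12 geese, SLC25A5 took 4.97 to 15.6% and SLC25A4 took 0.585 to 6.94%. SLC25A4, SLC25A5 and SLC25A6 are close copies of each other, so the split of their reads is uncertain. SLC25A5 also overlaps SLC25A43 on the same strand. The counts of both may depend on how reads there were assigned, which was not tested. SLC25A3 stood at 664, 541, 653 and 433 CPM in Con 1 to 4, at 462, 589, 726 and 737 CPM in LWG 1 to 4 and at 571, 538, 565 and 453 CPM in HWG 1 to 4. LWG 3 and LWG 4 were highest and Con 4 lowest, and the log2 fold change was 0.13 for LWG and -0.11 for HWG against Con.

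SLC25A24 and SLC25A25 exchange ATP-Mg for phosphate in response to calcium and so set the pool of adenine nucleotides in the matrix. SLC25A24 stood at 164, 126, 256 and 93.8 CPM in Con 1 to 4, at 167, 176, 308 and 342 CPM in LWG 1 to 4 and at 100, 95.9, 319 and 82.02 CPM in HWG 1 to 4. Con 3, LWG 3, LWG 4 and HWG 3 stood above the rest, and the other HWG geese lay between 82.0 CPM in HWG 4 and 100 CPM in HWG 1. The log2 fold change was 0.63 (SE 0.448, unadjusted p = 0.180) for LWG against Con. SLC25A25 was even in all groups, with 34.1 ± 6.42 CPM in the Con group, 31.5 ± 3.39 CPM in the LWG group and 34.9 ± 5.81 CPM in the HWG group. SLC25A24 made up 70.5 to 93.2% of the summed FPKM of both.

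Amino acid carriers form a second group. SLC25A12 and SLC25A13 exchange aspartate for glutamate in the malate-aspartate shuttle, which brings reducing power from glycolysis into mitochondria. SLC25A12 stood at 20.7, 18.8, 13.4 and 20.7 CPM in Con 1 to 4, at 17.9, 21.3, 14.2 and 15.2 CPM in LWG 1 to 4 and at 27.2, 30.8, 14.1 and 27.7 CPM in HWG 1 to 4. HWG 1, HWG 2 and HWG 4 were the highest of all 12 geese and HWG 3 lay among the lowest, with a log2 fold change of 0.44 (SE 0.246, unadjusted p = 0.0961) for HWG against Con and of 0.54 (SE 0.246, unadjusted p = 0.0458) for HWG against LWG. With the muscle score as a covariate these were 0.15 (unadjusted p = 0.508) and 0.29 (unadjusted p = 0.190) in edgeR. With the region score as a covariate they were 0.47 (unadjusted p = 0.061) and 0.62 (unadjusted p = 0.0198). The value for HWG against Con was 0.66 without HWG 3 and 0.32 without HWG 2. SLC25A13 stood at 94, 72.1, 85.9 and 63.3 CPM in Con 1 to 4, at 45.9, 48.5, 123 and 164 CPM in LWG 1 to 4 and at 56.1, 63.7, 90.5 and 53.2 CPM in HWG 1 to 4. LWG 3 and LWG 4 were highest and LWG 1 and LWG 2 lowest, so that the LWG group enclosed all other geese. SLC25A12 made up 11.8 to 43.02% of the FPKM of the pair.

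SLC25A22 imports glutamate with a proton. SLC25A22 stood at 69.2, 42.3, 140 and 37.03 CPM in Con 1 to 4, at 44.4, 54.4, 78.8 and 108 CPM in LWG 1 to 4 and at 49.4, 52.7, 76.3 and 31.5 CPM in HWG 1 to 4. Con 3 and LWG 4 were highest and HWG 4 lowest, with a log2 fold change of -0.02 for LWG and -0.46 for HWG against Con. SLC25A15 exchanges ornithine for citrulline across the inner membrane in the urea cycle of mammals. SLC25A15 stood at 117, 117, 157 and 105 CPM in Con 1 to 4, at 79.3, 115, 122 and 119.7 CPM in LWG 1 to 4 and at 98.95, 113, 112 and 92.5 CPM in HWG 1 to 4. LWG 1 was lowest and Con 3 highest. The log2 fold change for HWG against Con was -0.25 (SE 0.173, unadjusted p = 0.168), and ran from -0.32 without Con 4 to -0.11 without Con 3. SLC25A29 stood at 40.99, 33.5, 27 and 40.2 CPM in Con 1 to 4, at 30.8, 23.2, 36.4 and 31.4 CPM in LWG 1 to 4 and at 33.04, 30.03, 30.2 and 17.9 CPM in HWG 1 to 4. SLC25A29, a carrier of arginine and lysine, was lowest in HWG 4 and highest in Con 1. Its log2 fold change for HWG against Con was -0.35 (SE 0.217, unadjusted p = 0.131), and ran from -0.45 without Con 3 to -0.19 without HWG 4.

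SLC25A44 carries branched-chain amino acids into mitochondria. SLC25A44 stood at 45.8, 45.7, 59.8 and 42.8 CPM in Con 1 to 4, at 53.5, 65.9, 58.8 and 59.1 CPM in LWG 1 to 4 and at 59.4, 49.7, 52.4 and 56.6 CPM in HWG 1 to 4. Con 1, 2 and 4 were the 3 lowest geese and Con 3 lay within the LWG range, with a log2 fold change of 0.29 (SE 0.137, unadjusted p = 0.0536) for LWG against Con. With the muscle score as a covariate this was 0.31 (unadjusted p = 0.0395, adjusted p = 0.448 in edgeR), and with the region score 0.30 (unadjusted p = 0.0549). With limma on log2(FPKM + 0.1) it was 0.20 (unadjusted p = 0.178). SLC25A38, which brings in glycine for the first step of haem synthesis, was even, with 45.1 ± 7.00 CPM in the Con group, 42.2 ± 8.52 CPM in the LWG group and 45.1 ± 6.59 CPM in the HWG group. Both SLC25A44 and SLC25A38 had a coefficient of variation under 20%.

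Carriers of organic acids and acyl groups came next. SLC25A1 stood at 62.98, 43.2, 101 and 35.6 CPM in Con 1 to 4, at 53.2, 72.8, 73.8 and 74.4 CPM in LWG 1 to 4 and at 62.9, 36.95, 69.4 and 35.01 CPM in HWG 1 to 4. SLC25A1 was highest in Con 3 and lowest in HWG 4, and its log2 fold change was 0.18 for LWG and -0.25 for HWG against Con. SLC25A20 stood at 268, 154, 253 and 159 CPM in Con 1 to 4, at 136, 213, 321 and 315 CPM in LWG 1 to 4 and at 190.3, 155, 243 and 113 CPM in HWG 1 to 4. LWG 3 and LWG 4 were the 2 highest geese of SLC25A20 and HWG 4 the lowest, and LWG 1 lay below all Con geese. SLC25A10 stood at 52.6, 30.8, 44.7 and 28.9 CPM in Con 1 to 4, at 33.7, 41.5, 48.5 and 69.1 CPM in LWG 1 to 4 and at 28.3, 34.7, 45.9 and 26.5 CPM in HWG 1 to 4. SLC25A10, which exchanges malate or succinate for phosphate, was highest in LWG 4 and lowest in HWG 4. Its log2 fold change was -0.51 (SE 0.264, unadjusted p = 0.0753) for HWG against LWG, and ran from -0.66 without HWG 3 to -0.25 without LWG 4. SLC25A21, a carrier of 2-oxoadipate in lysine and tryptophan breakdown, had 0, 0, 0 and 9 counts in Con 1 to 4, then 10, 18, 0 and 0 in LWG 1 to 4 and 23, 0, 7 and 25 in HWG 1 to 4. SLC25A21 is one of the 3 carriers of smallest p on the higher side in HWG against Con, with an unadjusted edgeR p of 0.135, but with 6 of 12 geese at 0 no fold change is given.

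Of the carriers of cofactors and nucleotides, SLC25A32 and SLC25A17 were lower in the LWG group by value. SLC25A32 brings folate or FAD into mitochondria. SLC25A32 stood at 28.4, 43.8, 31.04 and 48.04 CPM in Con 1 to 4, at 26.2, 27.6, 27.2 and 31.4 CPM in LWG 1 to 4 and at 26.7, 40.5, 34.6 and 36.3 CPM in HWG 1 to 4. Con 2 and Con 4 were highest, and Con 1 and Con 3 lay within the LWG range, and the log2 fold change was -0.43 (SE 0.192, unadjusted p = 0.0436). SLC25A17, which sits in the membrane of peroxisomes and carries CoA, FAD and NAD+, was the carrier whose LWG and Con geese did not overlap besides SLC25A51. SLC25A17 stood at 26.3, 26.1, 25.6 and 29.6 CPM in Con 1 to 4, at 11.1, 21.4, 21.7 and 24.3 CPM in LWG 1 to 4 and at 24.9, 27.1, 18.8 and 18.6 CPM in HWG 1 to 4. Its lowest Con goose stood at 25.6 CPM and its highest LWG goose at 24.3 CPM, and the log2 fold change of -0.46 (SE 0.228, unadjusted p = 0.0668) did not pass. Without LWG 1, the goose at 11.1 CPM, it was -0.26 (unadjusted p = 0.167), and without LWG 4 it was -0.59 (unadjusted p = 0.0352). With the muscle score as a covariate it was -0.52 (unadjusted p = 0.0282, adjusted p = 0.398 in edgeR), and with the region score -0.45 (unadjusted p = 0.0683). With limma on log2(FPKM + 0.1) it was -0.61 (unadjusted p = 0.0210, adjusted p = 0.558).

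The following carriers of this group had unadjusted p-values over 0.05 in every diet comparison. SLC25A26, the carrier of S-adenosylmethionine, stood at 11.2 ± 2.29 CPM in the Con group, 10.1 ± 2.27 CPM in the LWG group and 12.1 ± 2.45 CPM in the HWG group. SLC25A42 imports CoA and stood at 19.02 ± 9.83 CPM in the Con group, 22.1 ± 5.73 CPM in the LWG group and 19.2 ± 2.78 CPM in the HWG group. SLC25A16, which has been linked to CoA in yeast, was at 67.1 ± 12.8 CPM in the Con group, 74.8 ± 10.7 CPM in the LWG group and 61.3 ± 13.6 CPM in the HWG group. SLC25A33 and SLC25A36 carry pyrimidine nucleotides for mitochondrial DNA and RNA, and SLC25A36 made up 37.02 to 71.1% of the FPKM of the pair. SLC25A33 stood at 11.6 ± 2.01 CPM in the Con group, 11.6 ± 2.69 CPM in the LWG group and 10.7 ± 1.57 CPM in the HWG group, and SLC25A36 at 10.4 ± 2.05 CPM in the Con group, 10.5 ± 1.69 CPM in the LWG group and 8.97 ± 3.22 CPM in the HWG group. For these 5 carriers the log2 fold changes ran from -0.22 to 0.22 in LWG and HWG against Con, and the smallest unadjusted p was 0.422.

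SLC25A28 and SLC25A37 are the mitoferrins, which bring iron in for haem and iron-sulfur clusters. SLC25A37 is the form of red cell precursors in mammals, and SLC25A28 made up 72.1 to 89.4% of the FPKM of the pair. SLC25A28 stood at 43.2 ± 3.16 CPM in the Con group, 44.3 ± 11.4 CPM in the LWG group and 48.4 ± 13.03 CPM in the HWG group, and SLC25A37 at 5.27 ± 1.54 CPM in the Con group, 4.67 ± 1.56 CPM in the LWG group and 4.29 ± 1.01 CPM in the HWG group. SLC25A40, the glutathione carrier that was too low to be tested, was at 0 in all 4 Con geese and at up to 0.537 CPM in LWG 3.

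The last carriers are those related to uncoupling proteins and those with other or less known roles. SLC25A30 stood at 3.49, 3.87, 2.45 and 4.66 CPM in Con 1 to 4, at 4.46, 4.55, 3.83 and 2.10 CPM in LWG 1 to 4 and at 6.57, 7.77, 4.31 and 5.35 CPM in HWG 1 to 4. SLC25A30, a relative of the uncoupling proteins, was highest in HWG 2 and HWG 1, and the Con, LWG and HWG geese overlapped. The log2 fold change was 0.73 (SE 0.311, unadjusted p = 0.0355) for HWG against Con and 0.68 (SE 0.311, unadjusted p = 0.0470) for HWG against LWG. With the muscle score as a covariate these were 0.51 (unadjusted p = 0.128) and 0.47 (unadjusted p = 0.154). With the region score as a covariate they were 0.80 (unadjusted p = 0.018) and 0.80 (unadjusted p = 0.0201) in edgeR, and neither passed the adjusted test. SLC25A14 and SLC25A27, 2 further relatives, stood at 24.99 ± 1.04 CPM in the Con group, 27.1 ± 5.42 CPM in the LWG group and 27.5 ± 3.77 CPM in the HWG group for SLC25A14 and at 9.31 ± 5.83 CPM in the Con group, 10.1 ± 4.56 CPM in the LWG group and 7.99 ± 2.68 CPM in the HWG group for SLC25A27. SLC25A46 stood at 72.7, 44.7, 67.3 and 53.3 CPM in Con 1 to 4, at 45.03, 48.95, 68.2 and 70.02 CPM in LWG 1 to 4 and at 38, 44.4, 59.6 and 36.9 CPM in HWG 1 to 4. SLC25A46 lies in the outer membrane and acts in mitochondrial fusion and fission, and it had a log2 fold change of -0.41 (SE 0.214, unadjusted p = 0.0764) for HWG against Con. In edgeR this was -0.45 (unadjusted p = 0.011, adjusted p = 0.618) with the region score as a covariate and -0.335 (unadjusted p = 0.165) with the muscle score. SLC25A34 stood at 6.95 ± 1.15 CPM in the Con group, 8.43 ± 0.506 CPM in the LWG group and 7.36 ± 1.57 CPM in the HWG group, and SLC25A43 at 31.5 ± 11.2 CPM in the Con group, 41.1 ± 8.10 CPM in the LWG group and 27.6 ± 12.4 CPM in the HWG group. SLC25A47 stood at 1.71, 0.234, 3.03 and 0.368 CPM in Con 1 to 4, at 0.634, 0.541, 6.80 and 1.39 CPM in LWG 1 to 4 and at 1.42, 0.684, 1.26 and 0 CPM in HWG 1 to 4. SLC25A47, known in mammals from the liver, was highest in LWG 3 and at 0 in HWG 4.

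The second comparison asks how the carriers moved with the muscle content of the piece, within the diet groups. The smooth muscle score ran from 8.78 in Con 3 to 11.2 in HWG 2, and slopes are given on the log2 scale per SD of the score, which was 0.680. SLC25A4 rose with the score, with a slope of 0.91 (SE 0.0918, adjusted p = 0.00210), and it was the 1 of 36 carriers that passed, beside 0.437% of all tested genes that rose. None of the carriers fell at an adjusted p under 0.05, beside 0.242% of all genes. HWG 2 and HWG 1, with the 2 highest scores, had the 2 highest levels of SLC25A4 at 164.2 and 120.1 CPM. HWG 3 and Con 3, with the 2 lowest scores, had its 2 lowest levels at 23.4 and 24.9 CPM. SLC25A5, with a slope of 0.17 (SE 0.107, adjusted p = 0.501), and SLC25A6, with a slope of -0.25 (SE 0.118, adjusted p = 0.365), did not pass. In mammals SLC25A4 is the form of heart and skeletal muscle, while the score is made of smooth muscle markers. Why SLC25A4 rose with the score was not tested.

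At an unadjusted p under 0.05, SLC25A12 (0.28) and SLC25A4 had positive slopes, 2 of 36 carriers beside 6.48% of all genes. SLC25A24 (-0.48), SLC25A43 (-0.32) and SLC25A1 (-0.31) had negative slopes, 3 of 36 carriers beside 8.26% of all genes. Without HWG 3, no carrier had a negative slope at an unadjusted p under 0.05, and SLC25A24 was at -0.20, SLC25A43 at -0.18 and SLC25A12 at 0.16, while SLC25A1 was at -0.19 without Con 3. SLC25A43 stood at 32.8, 22.2, 46.9 and 24.2 CPM in Con 1 to 4, at 45.7, 29.04, 43.4 and 46.1 CPM in LWG 1 to 4 and at 23.02, 22.2, 45.9 and 19.1 CPM in HWG 1 to 4. Con 3, LWG 1, LWG 3, LWG 4 and HWG 3 were the 5 highest geese, and no other goose was above the 32.8 CPM of Con 1. SLC25A17 had the positive slope with the smallest p after these, of 0.19 (SE 0.0951, adjusted p = 0.401). Of the muscle markers, 8 of 8 had positive slopes at an unadjusted p under 0.05 and 6 passed the adjusted test, which follows from their part in the score. Of the 7 enterocyte markers, 6 had negative slopes at an unadjusted p under 0.05 and ANPEP, a peptidase of the brush border, fell at an adjusted p of 0.0225. Muscle markers together ranged from 5439 to 19340 CPM in the Con geese, from 8130 to 16950 CPM in the LWG geese and from 6534 to 34860 CPM in the HWG geese, and none of the 8 was at 0. Enterocyte markers together ranged from 4411 to 14640 CPM, from 10610 to 18920 CPM and from 3535 to 14410 CPM in the same groups, and none of the 7 was at 0. Cycling cell markers had positive slopes at an unadjusted p under 0.05 in 6 of 6 genes (median 0.41) and markers of enteric neurons and glia in 3 of 5 (median 0.32), and none of either list passed the adjusted test or was at 0. Cycling markers together ranged from 590.2 to 1624 CPM in the Con geese, from 312.8 to 902.1 CPM in the LWG geese and from 591.5 to 969.6 CPM in the HWG geese. The neuron and glia markers together ranged from 25.9 to 66.3 CPM, from 35.6 to 50.2 CPM and from 39.8 to 72.3 CPM in these groups. The part of these 4 lists in the slopes of the carriers was not tested. The slope of SLC25A4 passed the adjusted test without each of the 12 geese in turn, with slopes of 0.88 to 0.98. Without Con 3 and HWG 2 together the slope was 1.03 (unadjusted p = 1.3e-05, adjusted p = 0.195), and 0% of all genes passed in that fit.

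**Figure D4:**
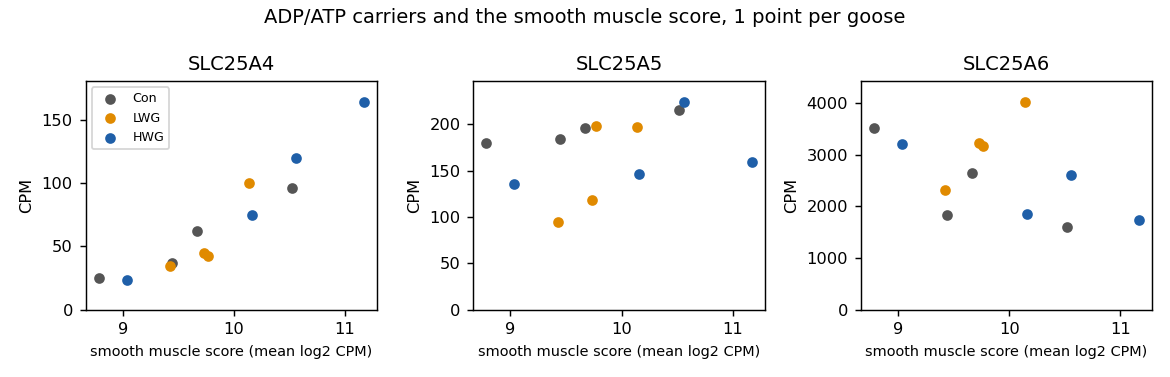
CPM of the ADP/ATP carriers SLC25A4, SLC25A5 and SLC25A6 against the smooth muscle score, with 1 point per goose and 1 colour per diet group. SLC25A4 goes from 23.4 and 24.9 CPM in the 2 geese with the lowest scores to 164.2 CPM in the goose with the highest, while SLC25A5 and SLC25A6 show no slope that passed the test.

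The third comparison sets the carriers against the region score, again within the diet groups. The score ran from -9.38 in LWG 2 to 10.9 in Con 1 with an SD of 8.03, and it fell into 7 geese above 0 and 5 below, which are not groups of the study. Per SD of the score, 5 of 36 carriers rose at an adjusted p under 0.05 (13.9%), beside 2.83% of all tested genes, and 1 fell, beside 1.16%. Those that rose were SLC25A22, SLC25A20, SLC25A47, SLC25A13 and SLC25A10, and the carrier that fell was SLC25A48. The slope of SLC25A22, the glutamate carrier, was 0.52 (SE 0.111, adjusted p = 0.0299). For SLC25A20, the acylcarnitine carrier, it was 0.38 (SE 0.0814, adjusted p = 0.0313), and for SLC25A13, the aspartate/glutamate carrier, 0.43 (SE 0.104, adjusted p = 0.0446). SLC25A10, the dicarboxylate carrier, had a slope of 0.31 (SE 0.0751, adjusted p = 0.0454), and SLC25A47, with at most 6.80 CPM in a goose, one of 1.65 (SE 0.359, adjusted p = 0.0320).

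SLC25A48 had a slope of -1.11 (SE 0.164, adjusted p = 0.00590), so that it was higher toward the HOXA10 side. Within Con, the 2 geese with a negative score had 28.7 and 34.9 CPM and the other 2 had 3.59 and 10.3 CPM. In LWG they had 143.7 and 158.3 CPM against 15.3 and 39.7 CPM, and in HWG the 1 goose with a negative score had 47.1 CPM against 8.24 to 15.7 CPM. Within each diet group every goose with a negative score had more SLC25A48 than every goose with a positive score. These are the same geese that gave the slope, so this describes the slope and is not a separate test. Enterocyte markers moved with the same score, since 5 of 7 had positive slopes at an unadjusted p under 0.05 and FABP2, a fatty acid binding protein, rose by 1.47 per SD (adjusted p = 0.0156) and MTTP, which loads lipid onto lipoproteins, by 0.77 (adjusted p = 0.0470). None of the 8 muscle markers had a slope at an unadjusted p under 0.05 with the region score, and their median slope was -0.12. The part of the enterocyte markers in the slopes of the carriers was not tested.

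At an unadjusted p under 0.05, 12 of 36 carriers had positive slopes, beside 11.6% of all genes, and 4 had negative slopes, beside 9.08%. The median slope of the 36 carriers was 0.06, beside -0.01 over all tested genes. The further positive slopes were those of SLC25A24 (0.52), SLC25A46 (0.24), SLC25A16 (0.20), SLC25A3 (0.20), SLC25A43 (0.32), SLC25A1 (0.31) and SLC25A6 (0.27). Beside SLC25A48, the negative slopes included those of SLC25A28 (-0.22) and SLC25A21, which was at 0 in 6 geese. SLC25A28 stood at 38.96, 45.98, 45.2 and 42.7 CPM in Con 1 to 4, at 55.3, 52.9, 33.8 and 35.2 CPM in LWG 1 to 4 and at 53.1, 47.4, 31.2 and 62.1 CPM in HWG 1 to 4. HWG 4 was highest and HWG 3 lowest. With limma on log2(FPKM + 0.1), 7 of the 34 carriers tested had positive and 8 had negative region slopes at an unadjusted p under 0.05. Over all 12529 genes tested there, 779 had positive and 2870 had negative slopes at that limit.

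How many slopes were called depended on single geese. SLC25A48 passed the adjusted test without each of the 12 geese in turn, SLC25A22 in 7 of these 12 fits, SLC25A20 and SLC25A47 in 6, SLC25A13 in 3 and SLC25A10 in 2. Between 1 and 8 carriers were called in these fits, while 0.805% (without HWG 4) to 4.55% (without HWG 1) of all tested genes were called. The count was 1 without Con 2, Con 4 or HWG 4, 2 without LWG 1, LWG 3 or LWG 4, and 3 without Con 1 or LWG 2. Without LWG 2 and HWG 4 together, the 2 geese with the lowest scores, 0 carriers and 0.334% of all genes passed. The slopes of SLC25A48 and SLC25A22 were then -1.31 (adjusted p = 0.0589) and 0.75 (adjusted p = 0.0729). Of the 35 carriers tested there, 14 had an unadjusted p under 0.05, beside 16.4% of all genes. With both scores in 1 fit, an alternative added after the data were seen, the slopes of these 6 carriers passed at adjusted p-values of 0.00463 to 0.0460, and SLC25A4 passed on the muscle score at 0.000617.

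**Figure D5:**
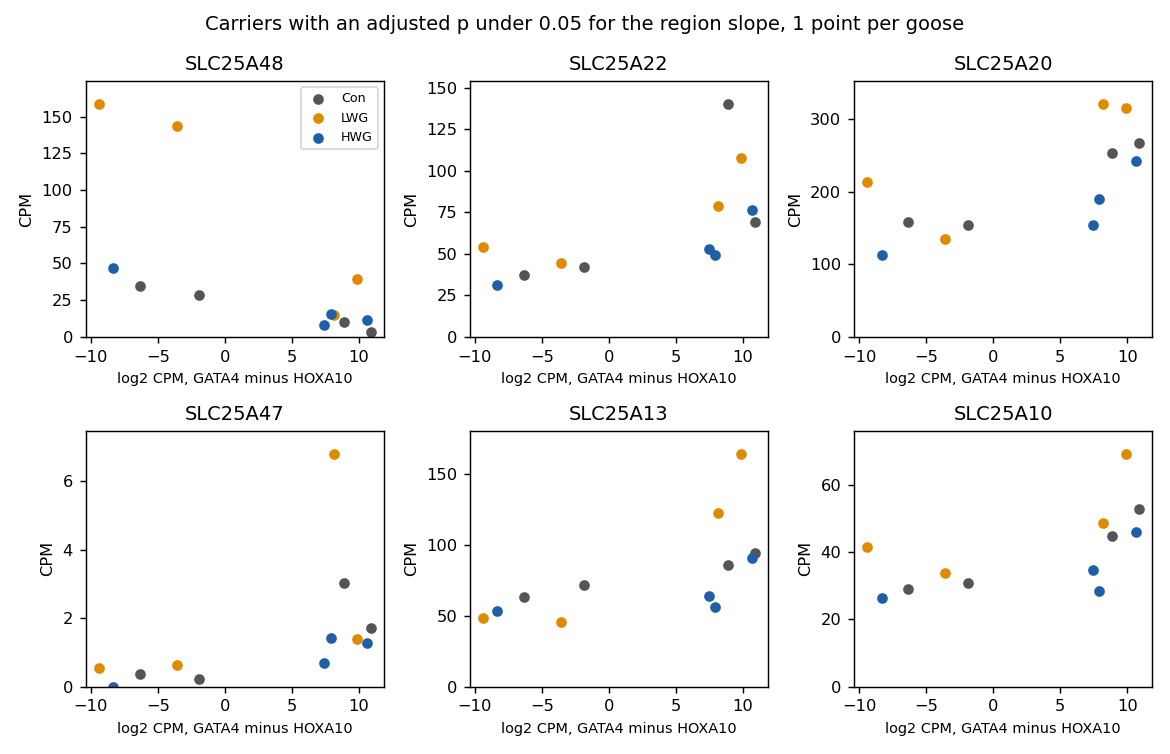
CPM of the 6 carriers with an adjusted p under 0.05 for the slope on the region score, with 1 point per goose and 1 colour per diet group. SLC25A48 is highest at negative scores, in LWG 2 (158.3 CPM) and LWG 1 (143.7 CPM), and the other 5 carriers have their highest goose at a positive score.

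The diet comparisons were repeated with each score as a covariate, and no carrier passed the adjusted test in these fits. With the region score, 12 of 36 carriers were lower in HWG than in LWG at an unadjusted p under 0.05, beside 9.77% of all tested genes, and 2 were higher, SLC25A12 and SLC25A30, beside 7.82%. The 12 were SLC25A48 (-1.54), SLC25A10 (-0.62), SLC25A20 (-0.64), SLC25A24 (-0.97), SLC25A43 (-0.73), SLC25A47 (-2.32), SLC25A46 (-0.46), SLC25A16 (-0.38), SLC25A22 (-0.65), SLC25A1 (-0.60), SLC25A13 (-0.54) and SLC25A6 (-0.56). The smallest adjusted p among them was 0.107, for SLC25A48, in edgeR. Apart from SLC25A48, all of these carriers had positive region slopes at an unadjusted p under 0.05. The mean region score was 4.42 in HWG and 1.27 in LWG. The covariate by itself therefore lowers the HWG against LWG value of a carrier with a positive slope. SLC25A20, for example, was at -0.49 without the covariate. How much of the count of 12 follows from this was not tested. With the muscle score, 1 carrier was lower in HWG than in LWG at that limit, SLC25A48 (-2.18), and 0 were higher. In that fit 7.74% of all tested genes were called in both directions together. Without a covariate 1 carrier was lower. In HWG against LWG without a covariate, the median log2 fold change of the 7 enterocyte markers was -1.06, with 2 of 7 lower at an unadjusted p under 0.05, ANPEP (-1.50) and CDHR5 (-1.36). The median of the 8 muscle markers in the same comparison was 0.66, where 1 of 8 had an unadjusted p under 0.05 and a higher value in HWG. For the 6 cycling markers the median was 0.68, with 1 such gene. Over all tested genes in this comparison, 5.41% were lower and 5.15% were higher at that limit. In LWG against Con, 6 of 6 cycling markers had lower values at an unadjusted p under 0.05, beside 3.8% of all tested genes. At that limit 2 of 5 T cell markers and 2 of 5 B and plasma cell markers were higher, beside 2.83%, and 0 were lower. T cell markers together ranged from 173.8 to 308.1 CPM in Con and from 272 to 472.7 CPM in LWG. B and plasma cell markers together ranged from 1088 to 4709 CPM in Con and from 834.2 to 1950 CPM in LWG. None of these markers passed the adjusted test in a diet comparison, and the summed levels of the enterocyte, muscle and cycling lists are those given with the muscle score. Their part in the values of the carriers was not tested.

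The carriers were set beside 3 lists of genes that work with them. Of 29 proteins listed for transport over mitochondrial membranes whose genes have no SLC25A symbol, 22 were tested. None passed an adjusted p under 0.05 in a diet comparison by edgeR. LETM1, a cation exchanger of the inner membrane, had a log2 fold change of -0.83 (SE 0.306, unadjusted p = 0.0182) in HWG against Con, and CPT1A, which makes the acylcarnitines that SLC25A20 carries, one of -0.75 (SE 0.343, unadjusted p = 0.0468). CPT1A stood at 589.9 ± 194.5 CPM in Con, 709.3 ± 244.6 CPM in LWG and 349.8 ± 151.1 CPM in HWG. In HWG against LWG, 4 of the 22 were lower at an unadjusted p under 0.05, CPT1A among them with -1.02, and 0 were higher. Over all tested genes 5.41% were lower and 5.15% were higher at that limit. On the region score 3 of 22 rose at an adjusted p under 0.05, namely SFXN1, a serine carrier (0.30), MCU, the pore of the calcium uniporter (0.42), and CPT2, which turns acylcarnitines back to acyl-CoA in the matrix (0.33). At an unadjusted p under 0.05, 11 of 22 had positive region slopes, beside 11.6% of all genes, and 0 had negative ones, beside 9.08%. The median slope was 0.15.

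Of 40 enzymes that make or use what the carriers move, 35 were tested and 0 passed the adjusted test in a diet comparison. MDH2, the malate dehydrogenase of the matrix, rose with the region score by 0.69 (SE 0.103, adjusted p = 0.00609). ALAS1, the first enzyme of haem synthesis, rose by 0.59 (adjusted p = 0.0216) and IDH1, the cytosolic isocitrate dehydrogenase, by 0.37 (adjusted p = 0.0497). PCK1, an enzyme of gluconeogenesis, was at 436 ± 579.6 CPM in Con, 1235 ± 615 CPM in LWG and 301.2 ± 402.5 CPM in HWG, and was the 1 enzyme with an unadjusted p under 0.05 in HWG against LWG (-2.04, edgeR). On the region score, 16 of 35 had positive slopes at an unadjusted p under 0.05, beside 11.6% of all genes, and 1 had a negative slope, beside 9.08%. The median slope was 0.20. On the muscle score, 0 of the 35 passed the adjusted test, and at an unadjusted p under 0.05 1 had a positive and 4 had negative slopes.

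All 43 nuclear genes listed for the respiratory chain and ATP synthase were tested, and they carry NDUF, SDH or ATP5 symbols. No gene with a UQCR or COX symbol was among them, so these counts do not cover the whole respiratory chain. None had an unadjusted p under 0.05 in a diet comparison by edgeR, in either direction. On the region score 8 of 43 rose at an adjusted p under 0.05, namely SDHB, NDUFV3, ATP5F1, ATP5C1, NDUFV2, NDUFB5, NDUFB4 and NDUFS3, with slopes of 0.29 to 0.51, and 0 fell. At an unadjusted p under 0.05, 22 of 43 had positive slopes, beside 11.6% of all genes, and the median slope was 0.22. On the muscle score none passed, and NDUFA4, a small subunit of the respiratory chain, had the smallest adjusted p with a slope of 0.55 (adjusted p = 0.0558). The other counts of these lists stand beside the shares over all genes given above for the same slopes and diet comparisons.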

How the data were processed

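RNA from the jejunum of 12 geese, 4 in each of 3 diet groups, was measured. According to the methods, reads were filtered with fastp, aligned with HISAT2, quantified with StringTie and compared with edgeR, and versions are not given in the sources used here. The authors deposited 1 table of 18007 genes that gives whole-number counts and FPKM values per goose. The deposited counts gather at multiples of 4, so 1 count does not stand for 1 read pair, the read pairs behind it are not known and no counting intervals are given. The FPKM values of the authors served for levels between genes. The methods name another assembly than the scaffolds of the table, so no positions are given. Of 38 carriers, 37 carry the same symbol in RefSeq's table for the Taihu goose, used for names only, and 12 overlap another gene in the deposited table. Overlaps on the same strand include SLC25A34 with TMEM82 and SLC25A44 with SEMA4A, and their effect on the counts was not tested. One gene without a carrier symbol that is described there as a member of the family was left out.

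In R 4.3.3, edgeR 4.0.16 was run on the 14863 genes that passed filterByExpr, with TMM scaling and a quasi-likelihood fit of diet group over the 12 libraries. Slopes were fitted with the group and 1 score, each score scaled to an SD of 1 and computed from log2 CPM (prior count 2). Benjamini-Hochberg adjustment ran over all tested genes, and the standard error is the log2 fold change divided by the square root of F. Over the 66 pairs of libraries, chi-square divided by its degrees of freedom was at least 95.4, so all 12 were taken as separate.

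The carriers given goose by goose were those with the 3 smallest p-values in each direction for LWG and HWG against Con and for both slopes, the 2 smallest for HWG against LWG, and the 5 highest levels, and the others are given by role. The values of 1 carrier are not reported here, and it stays in the counts, medians and tests. Carriers, lists and tests were chosen with earlier results of these data known. Alternatives were DESeq2 1.42.0, its size factors in edgeR, limma 3.58.1 on log2(FPKM + 0.1) and log2(FPKM + 1) for genes with a mean of at least 0.5 FPKM, no filter, counts divided by 4, the scores as covariates, the replicate number as a block, and fits without each goose. The test was checked on simulated counts. Figures were drawn with matplotlib 3.10.9 and tables made with pandas 2.3.3 and numpy 2.4.6 in Python 3.11.15.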

Additional observations from a re-analysis of the deposited data

Results flagged for a closer look

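In each diet group of 4 geese, the highest and the lowest CPM of each tested carrier were checked with Dixon's ratio, the gap to the nearest goose over the whole range, against its critical value for 4 values. Of 108 groups checked, 11 had a goose that stood apart. Chance flags about 1 in 20 groups when values are independent and normally distributed. The carriers were measured in the same geese, and the flags of SLC25A51 and SLC25A21 come from groups with only 1 goose above 0. The count of 11 therefore cannot be set against that rate.

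Geese that stood apart on the low side were LWG 1 for SLC25A1 (53.18 CPM) and SLC25A15 (79.28 CPM), LWG 2 for SLC25A43 (29.04 CPM) and Con 1 for SLC25A25 (24.6 CPM). On the high side, LWG 4 stood apart for SLC25A4 (99.73 CPM), LWG 3 for SLC25A47 (6.8 CPM) and HWG 3 for SLC25A24 (319.2 CPM) and SLC25A43 (45.94 CPM). HWG 3 also had the second-lowest smooth muscle score of the 12 geese. Its region score was 10.64, and its enterocyte markers together stood at 14410 CPM, the highest of the HWG geese. Which of these goes with the flags was not tested. For SLC25A51, LWG 1 (30.5 CPM) and HWG 1 (37.05 CPM) were the only geese of their groups with counts, and for SLC25A21 Con 4 (0.1839 CPM) was the only Con goose with any.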

How the results depend on the processing

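No carrier passed an adjusted p under 0.05 in a diet comparison under any alternative run, and no named value changed its sign where it was tested. SLC25A47 and SLC25A21, with means under 0.5 FPKM, were not tested with limma. SLC25A21 was also not tested with counts divided by 4. The counts at an unadjusted p under 0.05 moved. For LWG against Con the count was 2, and it was 5 with limma at either pseudocount (8.49% and 8.36% of all tested genes) and 5 with the muscle score as covariate (10.3%). For HWG against Con it was 1, and it was 2 with limma on log2(FPKM + 1) (3.35%), 3 without a filter (4.21%), 0 with the muscle score (4.31%) and 3 with the region score (7.62%). For HWG against LWG it was 3, and it was 1 with limma at either pseudocount (13.1% and 13.2%), 1 with the muscle score (7.74%) and 14 with the region score (17.6%). Without each goose in turn these counts ran from 0 to 5 (highest without Con 3, with 12.8% of all genes), from 1 to 6 (highest without HWG 3, with 11% of all genes) and from 0 to 8 (highest without HWG 3, with 19.9%). Carriers whose geese did not overlap were 2 to 5 for LWG against Con (5 without Con 3), 0 to 4 for HWG against Con (4 without HWG 3) and 0 to 7 for HWG against LWG (7 without HWG 3) when 1 goose was left out. The share of all genes was not computed for these smaller groups, so these counts cannot be set against it. On the muscle score, 1 carrier was called and 5 had an unadjusted p under 0.05, and without the 2 geese of the most extreme scores these were 0 (0% of all genes) and 1 (5.87%). With both scores in 1 fit, 8 had an unadjusted p under 0.05 (16.9%). Without each goose in turn, 1 was called in every fit (1 to 1), and 1 to 7 had an unadjusted p under 0.05 (7.85% to 16.8% of all genes). On the region score, 6 carriers were called, 0 without the 2 geese of the most extreme scores (0.334% of all genes) and 1 to 8 without each goose in turn. In those fits without 1 goose, 14 to 17 had an unadjusted p under 0.05 (16% to 22% of all genes), beside 16 in the main fit. With limma on log2(FPKM + 0.1), 5 of 34 were called (7.61%). The causes were not tested.

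The labels number the geese 1 to 4 in each group, but nothing says that a number marks a shared pen or day. Deviations from the group means correlated over 0.1 in 6 of 12 same-numbered pairs (-0.282 to 0.377), and 4 of 12 libraries correlated best with their own number. These values cannot decide whether a number marks a shared pen or day, and the main fits did not use it. With the replicate block, HWG against Con had 2 carriers at an unadjusted p under 0.05 (4.88% of all genes). The muscle score had 0 called and 3 at an unadjusted p under 0.05 (5.99%) with the block, and the region score had 2 called (0.659%), SLC25A13 among them with an adjusted p of 0.0267. With the block, SLC25A4 kept a slope of 0.86 on the muscle score (unadjusted p = 4.96e-05, adjusted p = 0.209), where 0% of all genes passed. SLC25A48 kept one of -1.13 on the region score (adjusted p = 0.0688). With 4 geese a group and a coefficient of variation near 0.384, small differences could not be detected.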
